A study of Mus musculus with 12 samples.

Results

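The 9 genes described here are Foxa1, Foxa2, Foxa3, Sox17, Sox7, Hnf4a, Hhex and Cdx2, transcription factors of endoderm and of its derivatives, and Shh, the gene of the ligand Sonic hedgehog. They were taken by name, and every non-control probe whose RefSeq accession belongs to one of them was read. This gave 14 probes, of which 11 were bright enough to be tested, and the 9 genes are 9 of 20875 genes tested on the arrays. The study measured total RNA of mouse embryonic stem cells (mESC, 4 arrays) and of the cells they gave at day 9 (4 arrays) and day 14 (4 arrays) of a cardiomyocyte differentiation on plates coated with a crosslinked elastin-like polypeptide (ELP). Per the labels the differentiating cells were kept without leukemia inhibitory factor (LIF), which holds mouse stem cells undifferentiated, first in stem cell medium and then in GMEM with a knockout serum replacement, non-essential amino acids and β-mercaptoethanol. The same growth text stands on the mESC samples, the cell line is not named, and no genetic change is given for any group. Nothing says whether the 4 replicates are separate cultures, and the p-values therefore speak of the spread among these samples, technical or not.

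Endoderm is the germ layer that lines the gut and gives the liver, pancreas and lung, and mouse embryos also form an extraembryonic endoderm (visceral and parietal) outside the embryo proper. Foxa proteins are forkhead factors that bind closed chromatin and open it for others, Sox17 and Sox7 are related HMG-box factors, and Hnf4a is a nuclear receptor of visceral endoderm and hepatocytes. Hhex is a homeobox factor of anterior visceral endoderm and of the liver bud, and Cdx2 is a caudal-type homeobox factor of trophectoderm and hindgut. Sonic hedgehog is secreted by gut epithelium, notochord and floor plate. It binds the receptor Ptch1, which frees Smo to act on the Gli factors, and Ptch1, Gli1 and Hhip are known targets of the pathway. None of these genes is specific to endoderm: Sox17, Sox7 and Hhex are also known from endothelium or its progenitors. In RNA of a whole culture, fewer cells of a type and less RNA per cell cannot be told apart.

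Promoter sequences are printed for 5 genes whose levels took different courses, to show which of 6 short motifs stand before their starts. RefSeq (GRCm38.p6) held windows for 6 of the 9 genes, which are Foxa1, Foxa2, Foxa3, Hnf4a, Hhex and Cdx2. Each sequence is the 250 bases before the annotated start, in lower case, with matches on either strand in capitals.
Foxa1, chr12:57546112-57546361, minus strand: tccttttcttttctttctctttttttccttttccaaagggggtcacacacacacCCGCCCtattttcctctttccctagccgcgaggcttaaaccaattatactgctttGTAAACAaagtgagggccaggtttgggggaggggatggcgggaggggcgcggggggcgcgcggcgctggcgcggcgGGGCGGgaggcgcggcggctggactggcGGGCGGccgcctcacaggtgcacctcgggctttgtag
Foxa2, chr2:148045465-148045714, minus strand: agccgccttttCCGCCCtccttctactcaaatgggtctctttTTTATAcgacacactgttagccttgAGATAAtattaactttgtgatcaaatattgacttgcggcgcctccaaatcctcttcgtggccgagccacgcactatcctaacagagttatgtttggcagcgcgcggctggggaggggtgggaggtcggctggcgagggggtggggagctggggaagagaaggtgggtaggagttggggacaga
Foxa3, chr7:19023540-19023789, minus strand: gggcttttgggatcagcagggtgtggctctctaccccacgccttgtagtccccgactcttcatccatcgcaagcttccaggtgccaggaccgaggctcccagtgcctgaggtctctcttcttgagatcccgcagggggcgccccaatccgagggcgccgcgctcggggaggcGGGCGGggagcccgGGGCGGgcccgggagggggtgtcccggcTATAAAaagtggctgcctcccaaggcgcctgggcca
Hhex, chr19:37434591-37434840, plus strand: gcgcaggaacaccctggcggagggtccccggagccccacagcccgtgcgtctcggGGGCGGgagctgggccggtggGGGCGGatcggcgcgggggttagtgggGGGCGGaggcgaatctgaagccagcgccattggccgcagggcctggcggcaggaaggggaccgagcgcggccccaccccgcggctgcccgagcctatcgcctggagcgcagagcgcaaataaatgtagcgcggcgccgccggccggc
Cdx2, chr5:147307250-147307499, minus strand: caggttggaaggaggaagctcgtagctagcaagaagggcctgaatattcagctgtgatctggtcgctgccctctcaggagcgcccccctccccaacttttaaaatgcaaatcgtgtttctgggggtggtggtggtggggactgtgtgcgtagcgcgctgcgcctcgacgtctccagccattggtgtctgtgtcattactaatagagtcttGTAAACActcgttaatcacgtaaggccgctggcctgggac
The forkhead motif TGTTTAC was in 3.17% of 32851 RefSeq windows of the same length, and stood once in the Foxa1 window and once in the Cdx2 window. The GATA motif AGATAA, in 9.99% of windows, and the TATA box TATAAA, in 12.4%, each stood once in the Foxa2 window shown, which was picked from 3 for its matches, and a TATA box also stood in the Foxa3 window. The SP1 motif GGGCGG, in 32.7% of windows, had 3 matches each in Foxa1 and Hhex, 2 in Foxa3 and 1 in Foxa2. The HNF4 motif CAAAGTCCA, in 0.384% of windows, and the GLI motif GACCACCCA, in 0.225%, had no match in any of these 5 windows. A match is a run of letters and not a binding site.

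Levels are given as the log2 of a probe's processed signal minus the log2 of the 75th percentile of its array, so that 0 is the brightness of that percentile and a step of 1 is a doubling. They can be set side by side between arrays for 1 probe, and not between probes. A gene was called changed when its adjusted p in limma's moderated test, with Benjamini-Hochberg adjustment over all 20875 genes, was below 0.05 and its log2 fold change was at least 1 in size. Where a gene was not well above background on any mESC array, its fitted fold change has no floor. The difference is then given as at least N-fold, taken from the dimmest signal of any probe that passed the background test on each array. Where the gene's own signal was higher than that, its own signal was used. These bounds are not detection limits of the single probe, and they hold for the main processing only. An adjusted p printed beside such a bound belongs to the fitted change, and the bound itself was not tested. Each group lies on a slide of its own with a scan of its own: for all 3 comparisons, slide and group cannot be told apart.

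The markers of the groups went with their labels, except that the labels call every sample embryonic stem cells. The pluripotency factor Nanog averaged 4.40 ± 0.02 in mESC, -2.84 ± 0.27 at day 9 and -3.67 ± 0.12 at day 14 (SD, n = 4 each). Actc1, cardiac actin, averaged -3.13 ± 0.05 in mESC, 5.36 ± 0.43 at day 9 and 4.35 ± 0.21 at day 14. All 8 listed cardiomyocyte genes were higher than in mESC at both times, and 9 of 10 listed pluripotency genes were lower at both. The lowest correlation between arrays within a group was 0.989 over all tested genes, and the highest between groups was 0.957.

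**Figure D1:**
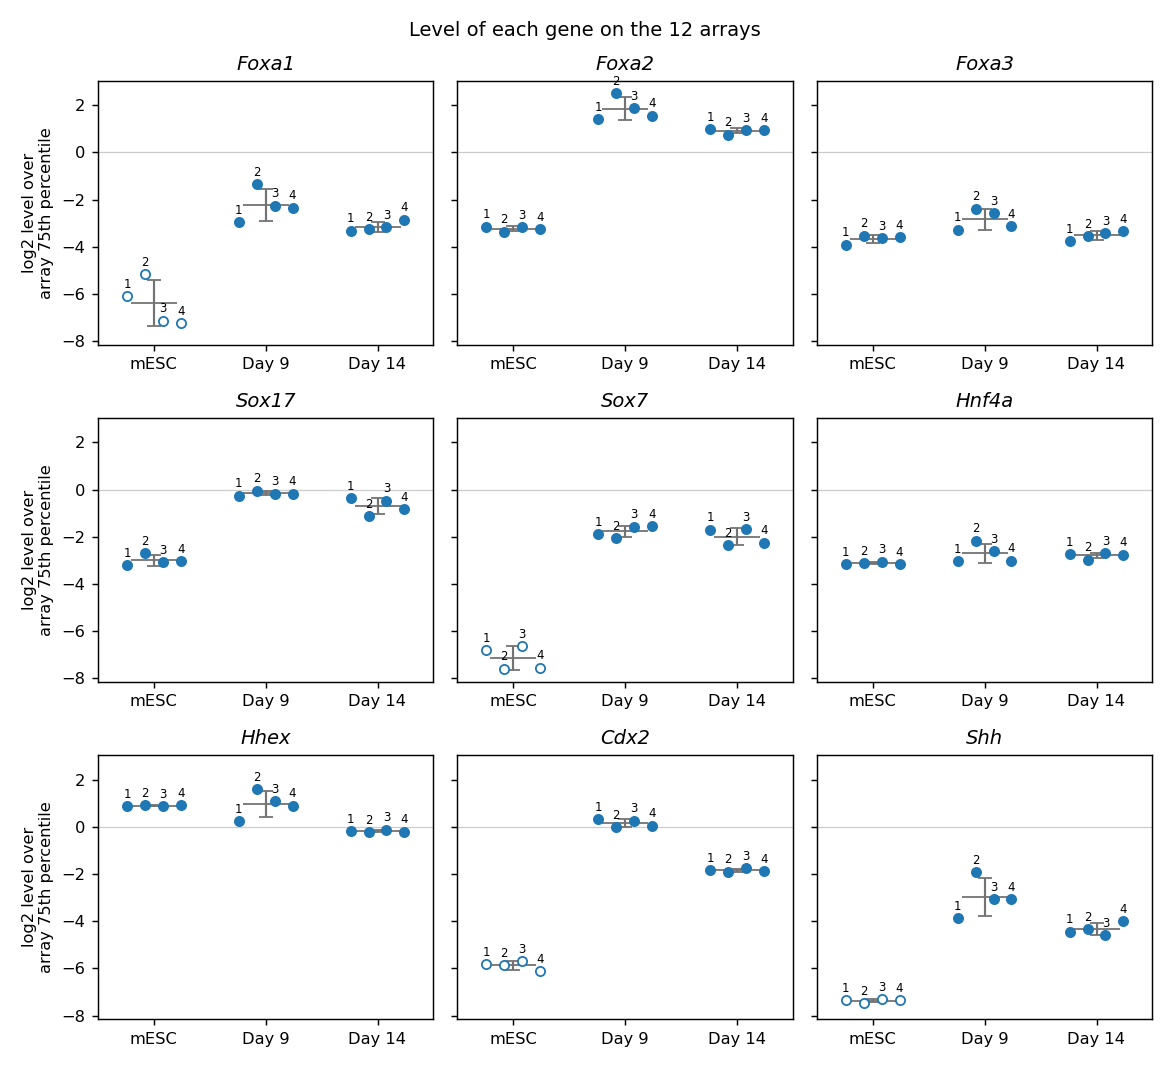
Levels of the 9 genes (log2 of the processed signal over each array's 75th percentile) on the 4 arrays each of mESC, day 9 and day 14, numbered by replicate. Open points were not well above background, and the grey bar and whiskers are the mean and SD. Foxa1, Sox7, Cdx2 and Shh were open on all 4 mESC arrays and filled on all 8 differentiated arrays.

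Of the 9 genes, 6 were higher at day 9 than in mESC and none was lower, where 20.0% of all genes were called higher and 21.0% lower. The 6 were Cdx2, Sox7, Foxa2, Shh, Foxa1 and Sox17, while Foxa3, Hnf4a and Hhex were not called. At day 14 the same 6 genes were higher than in mESC and Hhex was lower, against a background of 22.8% of all genes higher and 24.1% lower. Of the 6, Cdx2, Sox7, Shh and Foxa1 were bright enough to be tested only through the differentiated groups. Their direction against mESC was therefore set beforehand. With only probes above background on all arrays, 2 genes were called higher at each time. With the 4 genes that were below background in mESC set at their lower bound, the median log2 fold change of the 9 genes was 2.84 at day 9 and 2.14 at day 14. The fitted medians, which rest on those genes, were 4.17 and 3.03, and over all genes the medians were -0.16 and -0.19. Between the days, Cdx2, Shh and Hhex were lower at day 14 than at day 9 and none of the 9 was higher, where 3.61% of all genes were called lower and 10.2% higher. The median change between the days was -0.92 for the 9 genes and -0.09 for all genes. The comparisons of day 9 and day 14 with mESC share the mESC arrays, so they do not support each other.

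**Figure D2:**
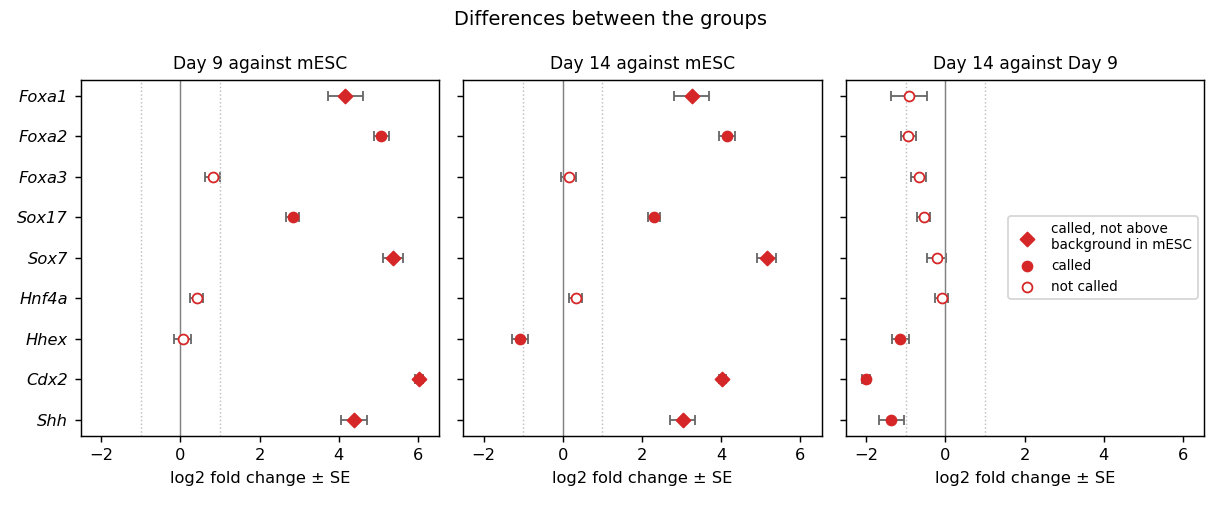
Log2 fold change with its standard error for the 9 genes in the 3 comparisons, with dotted lines at 1 and -1. Diamonds are called genes that were not above background in mESC, filled circles are other called genes, and open circles were not called. All 9 points lie below 0 in the comparison of day 14 with day 9, from -2.0 for Cdx2 to -0.09 for Hnf4a.

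Foxa2, the forkhead factor of definitive endoderm, visceral endoderm, node and floor plate, was measured above background on all 12 arrays. Its levels were -3.14, -3.36, -3.16 and -3.25 in mESC, 1.42, 2.52, 1.89 and 1.56 at day 9, and 0.99, 0.76, 0.96 and 0.95 at day 14. The 3 groups did not overlap: every day 9 array stood above every day 14 array, and all 8 of them above mESC. The log2 fold change was 5.08 ± 0.19 (SE) at day 9 against mESC, a 33.7-fold difference (adjusted p = 3.19e-10, limma). At day 14 against mESC it was 4.14 ± 0.19, or 17.7-fold (adjusted p = 1.53e-09, limma). Day 14 was below day 9 by a log2 fold change of -0.93 ± 0.19 (adjusted p = 0.00138, limma), which is just under the size required for a call. Without day 9 replicate 1 this difference was -1.07, and without day 9 replicate 4 it was -1.03, so the call between the days turns on single arrays.

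Foxa1, the close relative of Foxa2 that acts with it in gut, liver and lung, was not above background on any mESC array. It had levels of -6.08, -5.16, -7.12 and -7.22 in mESC, -2.97, -1.36, -2.25 and -2.34 at day 9, and -3.31, -3.25, -3.18 and -2.84 at day 14. All 8 differentiated arrays were above all mESC arrays, but day 9 and day 14 overlapped, since day 9 replicate 1 lay below day 14 replicate 4. Foxa1 was at least 8.33-fold higher at day 9 than in mESC (adjusted p = 3.69e-06, limma) and at least 4.41-fold higher at day 14 than in mESC (adjusted p = 2.96e-05, limma). The signals behind this were low, between 56.1 and 166 intensity units at day 9 and between 46.7 and 65.4 at day 14. With normexp background correction of the median signal, the fitted changes were 0.95 and 0.87, and neither was called. Between day 14 and day 9 the difference was -0.92 ± 0.45 (adjusted p = 0.095, limma). Its standard error pools all groups, whose SDs were 0.972 in mESC, below background, 0.662 at day 9 and 0.208 at day 14. That difference passed both limits without day 9 replicate 1, at -1.16.

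Foxa3, the Foxa gene of later gut and liver, was not called in any comparison. Its levels were -3.91, -3.53, -3.62 and -3.57 in mESC, -3.27, -2.38, -2.56 and -3.13 at day 9, and -3.76, -3.55, -3.41 and -3.33 at day 14. All day 9 arrays stood above the 8 others, and day 14 and mESC overlapped. The differences were 0.82 ± 0.19 at day 9 against mESC (adjusted p = 0.00175, limma), 0.15 ± 0.19 at day 14 against mESC (adjusted p = 0.485, limma) and -0.68 ± 0.19 at day 14 against day 9 (adjusted p = 0.0088, limma). In the main processing the first and last differ beyond the spread but stay under the size required. The signals were low, between 23.7 and 81.2 intensity units over all arrays. With normexp correction the first was 0.21 (adjusted p = 0.683, limma) and the last was 0.075.

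Sox17, a factor of definitive and extraembryonic endoderm and of endothelium, had the tightest day 9 values of the 9 genes. Its brightest probe gave -3.21, -2.69, -3.08 and -3.03 in mESC, -0.25, -0.04, -0.17 and -0.17 at day 9, and -0.37, -1.14, -0.46 and -0.84 at day 14. The groups did not overlap. Sox17 was 7.17-fold higher at day 9 than in mESC (log2 fold change 2.84 ± 0.16, adjusted p = 1.16e-08, limma) and 4.92-fold higher at day 14 than in mESC (2.30 ± 0.16, adjusted p = 6.68e-08, limma). Day 14 differed from day 9 by -0.54 ± 0.16 (adjusted p = 0.0123, limma), under the size required. A second Sox17 probe gave 2.80 ± 0.13 at day 9 and 2.24 ± 0.13 at day 14 against mESC, and both were called. The remaining Sox17 probe was not above background on any of the 12 arrays and was not tested.

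Sox7, the relative of Sox17 known from parietal endoderm and endothelium, was not above background on any mESC array. Its levels were -6.81, -7.59, -6.62 and -7.54 in mESC, -1.90, -2.07, -1.57 and -1.56 at day 9, and -1.70, -2.35, -1.69 and -2.25 at day 14. Day 9 and day 14 overlapped, and both stood far above mESC. Sox7 was at least 12.0-fold higher at day 9 than in mESC (adjusted p = 1.78e-09, limma) and at least 10.3-fold higher at day 14 than in mESC (adjusted p = 2.12e-09, limma). With normexp correction the fitted log2 fold change at day 9 was 1.37, still called but smaller than the bound. At day 14 the lowest fitted change over all settings was 1.46. The signals at day 9 were between 101 and 138 intensity units. The days differed by -0.22 ± 0.25 (day 14 minus day 9, adjusted p = 0.452, limma).

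Hnf4a, the nuclear receptor that drives apolipoprotein and clotting factor genes in visceral endoderm and liver, was not called in any comparison. The 1 tested probe gave -3.16, -3.12, -3.05 and -3.15 in mESC, -3.03, -2.16, -2.59 and -3.01 at day 9, and -2.74, -2.97, -2.70 and -2.75 at day 14. All differentiated arrays stood above all mESC arrays, by little, and day 9 and day 14 overlapped. The differences were 0.42 ± 0.16 at day 9 (adjusted p = 0.0325, limma) and 0.33 ± 0.16 at day 14 (adjusted p = 0.082, limma) against mESC, and -0.09 ± 0.16 at day 14 against day 9 (adjusted p = 0.638, limma). With normexp correction the day 9 difference from mESC was 0.12 (adjusted p = 0.809, limma). With quantile normalization and median scaling its adjusted p was 0.058 and 0.095 (limma). The signals were low, between 39.7 and 94.8 intensity units over all arrays. A second Hnf4a probe was above background on 1 mESC array, 2 day 9 arrays and 2 day 14 arrays, and another on none, so neither was tested.

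Hhex was the one gene of the 9 that was lower at day 14 than in mESC. Its brighter probe gave 0.88, 0.93, 0.86 and 0.92 in mESC, 0.25, 1.60, 1.09 and 0.89 at day 9, and -0.19, -0.22, -0.12 and -0.21 at day 14. The day 9 arrays lay on both sides of the mESC arrays, and all day 14 arrays were below all others. At day 14 Hhex was 2.12-fold lower than in mESC (log2 fold change -1.08 ± 0.21, adjusted p = 0.00051, limma) and 2.2-fold lower than at day 9 (-1.14 ± 0.21, adjusted p = 0.000672, limma). At day 9 it differed from mESC by 0.06 ± 0.21 (adjusted p = 0.807, limma). The second, dimmer Hhex probe was called in the same comparisons, at -1.68 ± 0.26 at day 14 against mESC and -1.34 ± 0.26 at day 14 against day 9. The size of the day 14 difference is near the limit of 1: it was -0.92 with normexp correction and -0.96 with quantile normalization against mESC, and -0.93 against day 9 without day 9 replicate 2.

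Cdx2, the homeobox factor of trophectoderm and hindgut, was not above background on any mESC array, with levels of -5.82, -5.87, -5.70 and -6.12, stood at 0.32, -0.01, 0.26 and 0.05 at day 9, and at -1.85, -1.90, -1.76 and -1.89 at day 14. The groups were far apart and each was narrow. Cdx2 was at least 45.7-fold higher at day 9 than in mESC (adjusted p = 3.57e-13, limma) and at least 11.4-fold higher at day 14 than in mESC (adjusted p = 5.92e-12, limma). With normexp correction the fitted log2 fold change at day 9 was 2.84, still called but smaller than the bound. At day 14 the lowest fitted change over all settings was 1.45. Day 14 was 4.01-fold lower than day 9 (log2 fold change -2.0 ± 0.10, adjusted p = 1.96e-08, limma).

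Shh was not above background on any mESC array, where its 4 signals were between 2.08 and 2.39 intensity units. Its levels were -7.35, -7.47, -7.31 and -7.34 in mESC, -3.89, -1.92, -3.06 and -3.05 at day 9, and -4.45, -4.33, -4.58 and -4.00 at day 14. Every day 9 array stood above every day 14 array, with day 9 replicate 1 only just above day 14 replicate 4. Shh was at least 5.20-fold higher at day 9 than in mESC (adjusted p = 1.03e-07, limma) and at least 2.03-fold higher at day 14 than in mESC (adjusted p = 2.68e-06, limma). It was 2.57-fold lower at day 14 than at day 9 (log2 fold change -1.36 ± 0.32, adjusted p = 0.00305, limma). With normexp correction the 3 fitted changes were 0.75, 0.64 and -0.11, and none was called.

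Counted by ranges, 8 of the 9 genes had every day 9 array above every mESC array, as did 33.7% of all genes. At day 14, 7 genes stood wholly above mESC, against 36.1% of all genes, and 1 wholly below, against 47.8%. Both upper counts hold Foxa1, Sox7, Cdx2 and Shh, which were tested only because they were above background in the differentiated groups. Between the days, 6 genes had every day 14 array below every day 9 array, against 34.2% of all genes.

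By the median over the 9 genes, the day 9 arrays were more spread than those of either other group. The SD between the 4 day 9 arrays was 0.806 for Shh, 0.662 for Foxa1, 0.558 for Hhex, 0.488 for Foxa2, 0.431 for Foxa3 and 0.411 for Hnf4a. It was 0.253 for Sox7, 0.160 for Cdx2 and 0.0889 for Sox17. The median of these 9 was 0.431, against a median of 0.143 over all genes at day 9. With normexp correction these medians were 0.213 and 0.0834, and the order of the genes changed. Hhex (0.511) and Foxa2 (0.468) were then more spread than Foxa1 (0.386) and Shh (0.372). In the mESC arrays the medians were 0.171 for the 9 genes and 0.0779 for all genes, and at day 14 they were 0.189 and 0.0882. Foxa1, Sox7 and Cdx2 had larger SDs in mESC, 0.972, 0.495 and 0.177, where they were below background, and Sox17 had larger SDs in both other groups, 0.219 in mESC and 0.353 at day 14. Sox7 also had a larger SD at day 14, 0.352. The standard errors above use 1 spread per gene for all groups. For Shh, Hhex, Foxa2, Foxa3 and Hnf4a they are therefore smaller than the day 9 arrays alone would give. For Foxa1 and Sox7 they take in the larger mESC spread, on signals below background. An SD at day 9 as large as that of Shh was met by 2.11% of all genes, as large as that of Foxa1 by 3.74%, of Hhex by 6.05% and of Foxa2 by 8.23%. For Cdx2 and Sox17 the shares were 44.2% and 73.7%, so the spread was not common to all 9.

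The spread had the same order in most of the genes. Replicate 2 was the highest and replicate 1 the lowest day 9 array for Foxa1, Foxa2, Foxa3, Sox17, Hnf4a, Hhex and Shh, which are 7 of the 9, against 13.7% of all genes. The count depends on the probe that stands for a gene. In the second tested probes of Hhex and Sox17 replicate 2 was also highest, but replicate 4 was lowest. Replicates 4 and 1 stood there at -4.61 and -4.55 for Hhex, and at -0.69 and -0.63 for Sox17. Replicate 2 minus replicate 1 was 1.96 for Shh, 1.61 for Foxa1, 1.35 for Hhex, 1.09 for Foxa2, 0.88 for Foxa3, 0.87 for Hnf4a and 0.21 for Sox17. It had the opposite sign for Cdx2, at -0.33, and for Sox7, at -0.17. Without replicate 2 the median day 9 SD of the 9 genes was 0.247, so that 1 array sets much of it.

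**Figure D3:**
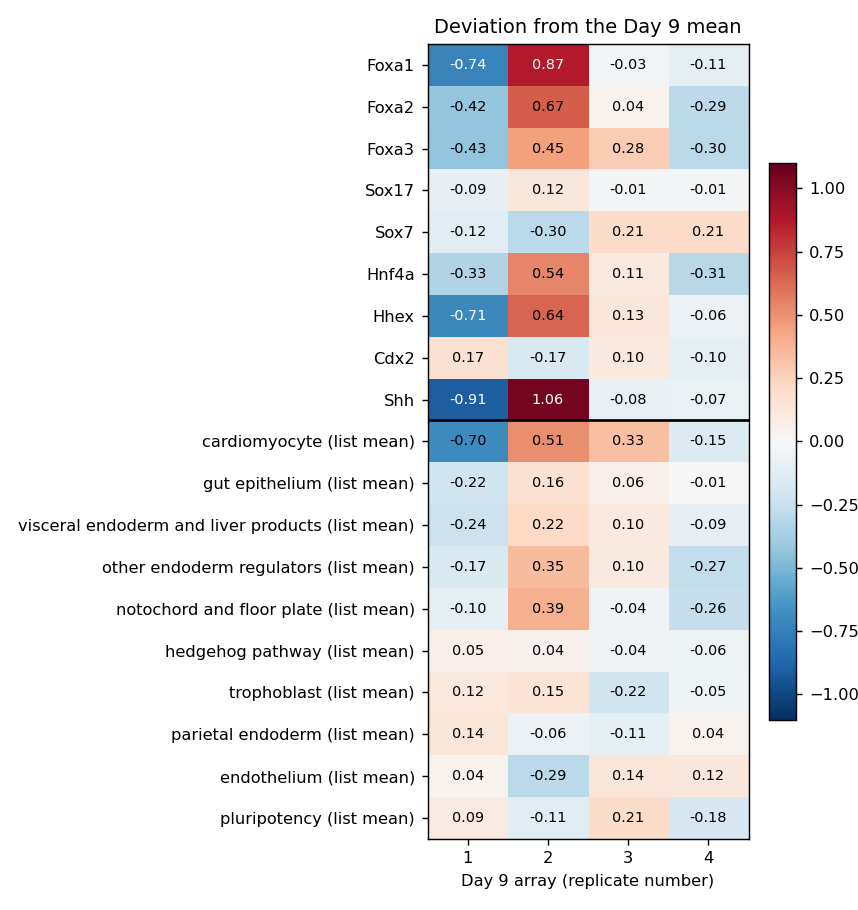
Deviation of each of the 4 day 9 arrays (columns, by replicate number) from the day 9 mean, in log2 units, for the 9 genes and, under the line, for the means of 10 lists of marker genes. Shh runs from -0.91 in replicate 1 to 1.06 in replicate 2, and the cardiomyocyte mean from -0.70 to 0.51.

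The same order was met in 8 of 8 cardiomyocyte genes, 8 of 17 gut epithelium genes, 9 of 20 visceral endoderm and liver products and 6 of 16 other endoderm regulators. It was met in 1 of 11 parietal endoderm genes, 2 of 9 notochord and floor plate genes and 1 of 10 trophoblast genes. Among 21 hedgehog pathway genes it was met in 2, among 10 pluripotency genes in 1 and among 11 endothelium genes in 0. The summed linear level of the 8 cardiomyocyte genes was 213 in day 9 replicate 1, 413 in replicate 2, 390 in replicate 3 and 294 in replicate 4. It was between 212 and 279 at day 14 and between 5.27 and 5.99 in mESC, with all 8 genes above background on every array. The part of the cardiomyocyte markers' course in the spread of the 9 genes was not tested. The share of probes well above background on the day 9 arrays was 61.4% in replicate 1, 64.8% in replicate 2, 65.5% in replicate 3 and 63.9% in replicate 4.

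Spots of the same probe varied far less than the day 9 arrays did. The probes of Foxa2 and Shh are printed 10 times each on every array. Between spots of 1 day 9 array the SD was 0.0562 to 0.0875 for Foxa2 and 0.0564 to 0.0955 for Shh, well under the SDs of 0.488 and 0.806 between the day 9 arrays. These spots share 1 hybridised sample, so they measure the precision of an array and not of a culture.

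**Figure D4:**
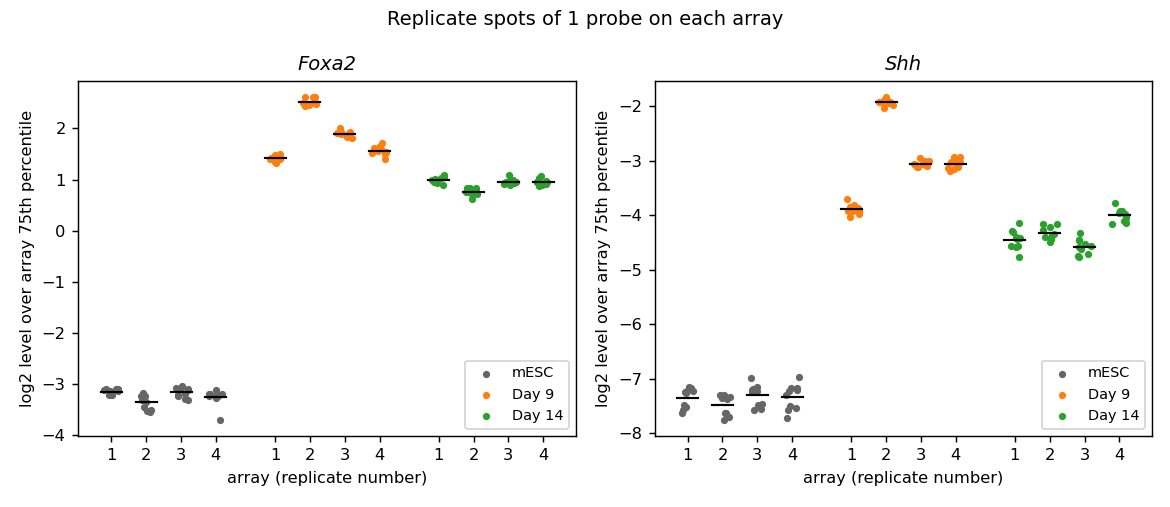
Levels (log2 over each array's 75th percentile) of the replicate spots of the Foxa2 probe and the Shh probe on each of the 12 arrays, with a line at the mean of the spots. The day 9 spots of Shh form separate bands for replicates 1 and 2, with replicates 3 and 4 together between them.

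The genes whose course over the 12 arrays was most like that of each of the 9 were found among 15029 named genes, by the root mean square difference of profiles centred on their own mean. For Shh they were the cardiac homeobox gene Nkx2-5 (0.24), Fbxo32 (0.27) and Pdlim3 (0.29). For Foxa2 they were Rcsd1 (0.22), the endoderm and heart factor Gata5 (0.23) and the calcium channel gene Cacna1d (0.23). For Foxa1 they were Srpk3 (0.43), Gipc2 (0.47) and Xirp1 (0.53). Hhex was nearest to Ap1s2 (0.10), Ap1m2 (0.18) and Plet1 (0.19), and Cdx2 to Dok4 (0.28), Rprm (0.30) and Tmem204 (0.31). Sox17 was nearest to Ankrd50 (0.18), the Wnt receptor gene Fzd4 (0.21) and Pla2r1 (0.21), and Sox7 to Ptpn13 (0.28), Adam12 (0.29) and Mical2 (0.31). Foxa3 was nearest to Tmem47 (0.16), Lmo7 (0.17) and Acsl4 (0.17), and Hnf4a to Optn, Osbpl3 and Osbpl8 (0.13, 0.13 and 0.14), which were nearly flat as it was. For Shh, Foxa1, Sox7 and Cdx2 the 4 mESC values are below background, so their nearest genes depend in part on where that background lies. Gene profiles over these 12 arrays fall into 3 groups of 4 and are not independent points.

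Of 23 other listed genes of the hedgehog pathway 21 were tested, and 10 were higher and 5 lower at day 9 than in mESC, where 20.0% of all genes were higher and 21.0% lower. On each array 17 of the 21 were above background in mESC, and 21 at day 9. Here and in the lists below, genes tested only through the differentiated groups had their direction against mESC set beforehand. At day 14 against mESC 10 were higher and 5 lower, where 22.8% of all genes were higher and 24.1% lower, so that the lower counts are near the background at both times. Between the days 2 were higher and 3 lower at day 14, where 10.2% of all genes were higher and 3.61% lower. Without day 9 replicate 2 these counts were 1 and 1. The median log2 fold change of the 21, with genes below background in mESC at their bound, was 0.96 at day 9 and 0.63 at day 14 against mESC, against -0.16 and -0.19 over all genes. Among ligands, Ihh (Indian hedgehog) was at least 3.13-fold higher at day 9 and at least 1.55-fold higher at day 14 than in mESC. Dhh (Desert hedgehog) was lower, at -1.54 ± 0.17 at day 9 and -2.67 ± 0.17 at day 14.

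The receptor Ptch1 was -0.69 ± 0.25 at day 9 against mESC (adjusted p = 0.0243, limma), under the size required, and fell by 1.81 ± 0.25 at day 14, where it was above background on 1 of 4 arrays. Hhip, which binds and retains the ligand, fell by 3.77 ± 0.24 at day 9 and by 4.53 ± 0.24 at day 14 relative to mESC. Gli1 averaged -4.35 ± 0.14 in mESC, -4.83 ± 0.43 at day 9 and -5.18 ± 0.24 at day 14 (SD, n = 4 each) and was not called in any comparison. None of these 3 known targets of the pathway was called higher at either time. Smo, the transducer that Ptch1 restrains, rose by 1.39 ± 0.06 at day 9 and by 1.83 ± 0.06 at day 14. The co-receptor gene Gas1 rose by 5.19 ± 0.23 and 6.35 ± 0.23, and Scube1, of a family that helps release the ligand, was at least 82.3-fold and at least 53.5-fold higher at day 9 and day 14 than in mESC. Foxf1 and Foxf2, forkhead genes of gut mesenchyme known as hedgehog targets there, were at least 3.68-fold and at least 11.6-fold higher at day 9, and at least 2.34-fold and at least 9.35-fold higher at day 14. The hedgehog list lost calls with normexp correction, to 6 higher and 2 lower at day 9 against mESC and to 1 higher and 0 lower between the days.

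**Figure D5:**
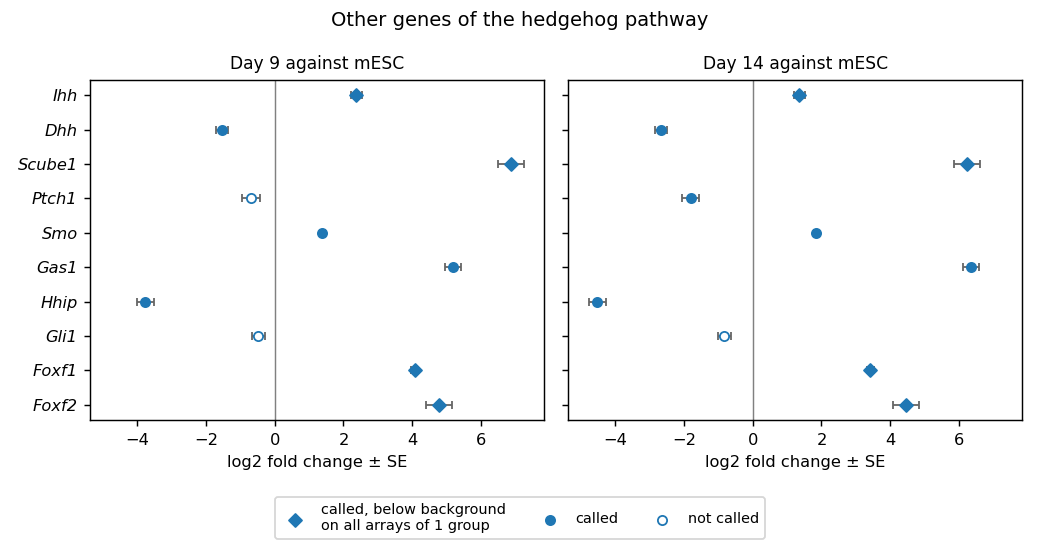
Log2 fold change with its standard error of 10 genes of the hedgehog pathway described in the text, at day 9 against mESC and at day 14 against mESC. Diamonds are called genes whose probe was below background on all arrays of 1 group, filled circles are other called genes and open circles were not called. Hhip and Dhh lie left of 0 and Scube1, Gas1 and Foxf2 right of 0 in both panels.

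Among 16 tested of 22 other endoderm regulators, 6 were higher and 5 lower at day 9 than in mESC, and 7 higher and 4 lower at day 14 than in mESC. At day 14 against day 9, 4 were higher and 0 lower (1 lower without day 9 replicate 4). The shares of all genes, against mESC, were 20.0% higher and 21.0% lower at day 9, and 22.8% and 24.1% at day 14. Between the days they were 10.2% higher and 3.61% lower. Gata6, a GATA factor of extraembryonic endoderm and heart, rose by 6.18 ± 0.06 at day 9 and by 5.97 ± 0.06 at day 14. Gata5 was at least 8.45-fold and at least 5.14-fold higher at the 2 times, and Sox9 rose by 4.29 ± 0.17 at day 9. Cdx1, the relative of Cdx2, went the other way: it was at least 7.21-fold lower at day 9 and at least 8.77-fold lower at day 14 than in mESC. The gut homeobox gene Isx was at least 5.07-fold higher at day 14 than in mESC. Cebpa and Nr1h4, factors of liver and bile acid metabolism, were 1.73 ± 0.24 and 1.62 ± 0.37 higher on the log2 scale at day 14 than at day 9, although Nr1h4 was above background on 2 of 4 day 9 arrays.

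Products of visceral endoderm and liver were higher in most cases while Hnf4a and Foxa3 were not called. Of 20 such genes 16 were higher and 2 lower at day 9 than in mESC, and one of the 16, Fga, was below background in both groups. Per array, 10 to 12 of the 20 were above background in mESC, and 18 or 19 at day 9. Those tested only through the differentiated groups had their direction against mESC set beforehand. At day 14, 17 were higher and 1 lower than in mESC, and 9 were higher and 6 lower than at day 9. The shares of all genes, against mESC, were 20.0% higher and 21.0% lower at day 9, and 22.8% and 24.1% at day 14. Between the days they were 10.2% higher and 3.61% lower. Afp, the fetal serum protein of yolk sac and liver, was at least 1607-fold higher at day 9 and at least 4952-fold higher at day 14 than in mESC. Alb, serum albumin, was 8.53 ± 0.58 higher on the log2 scale at day 14 than at day 9 (adjusted p = 2.98e-07, limma). The clotting gene Fga was at least 44.9-fold higher at day 14 than at day 9. The 6 lower genes were Spink1, at -2.74 ± 0.21, Apom, at -2.32 ± 0.11, the apolipoprotein gene Apob, at -2.26 ± 0.55, Amn and Cubn, whose products form an endocytic receptor of visceral endoderm, at -2.06 ± 0.12 and -2.03 ± 0.23, and Rbp4, at -1.53 ± 0.09. None of the 9 genes was higher at day 14 than at day 9.

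Of 11 tested parietal endoderm genes 9 were higher and 0 lower at day 9, and 9 higher and 0 lower at day 14, both against mESC. The basement membrane collagen gene Col4a1 rose by 4.82 ± 0.07 at day 9 and by 5.33 ± 0.07 at day 14, and the parathyroid hormone receptor gene Pth1r by 6.39 ± 0.08 and 6.41 ± 0.08. Of 17 gut epithelium genes, 10 were higher and 5 lower at day 9 and 8 higher and 4 lower at day 14 than in mESC. Per array, 12 or 13 of the 17 were above background in mESC, and 15 or 16 at day 9. For both lists the shares of all genes were 20.0% higher and 21.0% lower at day 9, and 22.8% and 24.1% at day 14. The keratin gene Krt8 rose by 3.92 ± 0.05 at day 9, while the adhesion genes Cdh1 and Cldn4 were lower, at -3.61 ± 0.17 and -3.97 ± 0.29. Fabp1, the fatty acid binding protein of liver and intestine, was at least 473-fold higher at day 14 than in mESC.

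Notochord and floor plate are the other tissues known for Foxa2 and Shh together. Of 9 tested marker genes 1 was higher and 1 lower at day 9 than in mESC, 1 was higher and 0 lower at day 14 than in mESC, and Noto, Lmx1a and Ferd3l were not tested. Among 9 genes these counts are too small to be told apart from the shares of all genes. Those shares were 20.0% higher and 21.0% lower at day 9 and 22.8% higher and 24.1% lower at day 14. The 1 higher gene was Spon1, F-spondin, at least 82.1-fold at day 9 and at least 23.3-fold at day 14. The summed linear level of the 9 genes was between 0.674 and 0.717 in mESC, between 2.29 and 3.16 at day 9 and between 1.21 and 1.58 at day 14.

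Other cell types also known for some of the 9 genes had the following values. The shares of all genes, against mESC, were 20.0% higher and 21.0% lower at day 9, and 22.8% and 24.1% at day 14. Of 10 tested trophoblast genes 4 were higher and 5 lower at day 9 than in mESC, where Cdx2 stood above its day 14 level. Hand1 was higher by 7.40 ± 0.19 and Tpbpa at least 2.42-fold, while Eomes and Tfap2c were lower, at -3.80 ± 0.19 and -3.45 ± 0.13. Hand1 was above background on 3 of 4 mESC arrays and Eomes on 1 of 4 day 9 arrays. The summed level of the trophoblast list was between 12.1 and 12.9 in mESC, between 12.6 and 16.1 at day 9 and between 34.4 and 37.7 at day 14. Of 11 tested endothelium genes, 8 were higher and 3 lower at day 9 and 7 higher and 3 lower at day 14 than in mESC. On each array 8 of the 11 were above background in mESC, and 11 at day 9. The endothelial adhesion genes Cdh5 and Emcn were at least 45.3-fold and at least 70.0-fold higher at day 9 than in mESC, while Vwf fell by 4.91 ± 0.09. Between the days 6 endothelium genes were lower at day 14 than at day 9 and 0 were higher, where Sox7 and Sox17 were not called. Over all genes 3.61% were lower and 10.2% higher between the days. The part of these cell types in the levels of Cdx2, Sox7 and Sox17 was not tested.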

How the data were processed

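Total RNA of 12 samples was measured on Agilent arrays with 1 dye, Cy3, per the labels' protocols. Agilent Feature Extraction (version 12 in the submitters' processing notes) gave the deposited processed signal, an intensity on a linear scale after background subtraction, not scaled between arrays, per the file headers. The median signal and local background of a spot are deposited as intensity values too. Flags of 0 or 1 for background, saturation and outliers come from the same software, per the file headers, and the series' value table held the same intensity values as the authors' array files, with 0 differences.

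Controls and outlier-flagged spots were dropped, saturation was flagged on none, and a probe's spots were averaged as log2 values. From these the log2 of the array's 75th percentile, between 346 and 508 intensity units, was subtracted. Testing required a probe above background on 3 or more of 4 arrays in some group, and the brightest tested probe stood for a gene. A gene that passed only where it is bright had its direction against the other group set beforehand, also in the lists. Probes were named through RefSeq accessions in GRCm38.p6: 28215 of 41174 were named. The arrays' own annotation is on the older build mm9, so probe positions are not given. All groups entered 1 fit in limma 3.58.1 (R 4.3.3), with a shared estimate of the spread per gene, tested on simulated data. The planned normexp alternative used the median signal, since the mean signal is not among the columns used here. Other alternatives were quantile normalization, the median in place of the percentile, no filter, a background filter over all 12 arrays, averaging a gene's probes, fits of only 2 groups, a trended robust fit, the value table, the replicate number as a block, and each replicate left out.

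The 9 genes and the lists were chosen with earlier results of these data known. Named from each list were up to 4 called genes with the largest change per comparison. Ihh, Dhh, Ptch1, Gli1 and Smo, and at day 9 Hhip, are named for their place in the pathway, chosen after their values were seen. The same holds for the products of visceral endoderm and liver that were lower at day 14 than at day 9. Precision is limited by how many arrays there are. Some listed genes are not reported here by name.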

Additional observations from a re-analysis of the deposited data

Results flagged for a closer look

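Foxa2 at day 14 had 1 array apart from the others: replicate 2 stood at 0.76, and the other 3 arrays between 0.95 and 0.99 (log2 over the array's 75th percentile), a gap of 0.843 of the group's whole range. The array was still below every day 9 array and above every mESC array. It was 1 of 33 sets of 4 arrays examined over the tested probes of the 9 genes, and chance marks about 1 in 20 such sets.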

How the results depend on the processing

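The 6 genes higher at day 9 and the 6 higher at day 14 than in mESC were 2 at each time when only probes above background on all arrays were kept, which leaves 5 of the 9 genes to test. The 1 gene lower at day 14 than in mESC was lost (0 genes) with normexp correction and with quantile normalization. The 3 genes lower at day 14 than at day 9 were 1 with normexp, 5 with median scaling and 1 with the filter on all arrays, and between 2 (without day 9 replicate 2) and 5 (without day 9 replicate 1) with 1 array left out. The 20 calls over probes and comparisons were 11 with normexp and 10 with the filter on all arrays. The median day 9 SD of 0.431 was 0.213 with normexp, and between 0.247 and 0.496 with 1 day 9 array left out.

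Signs turned only in differences that were not called: Hhex at day 9 against mESC (-0.071 with median scaling, -0.14 as a mean over probes, -0.16 without day 9 replicate 2), Foxa3 at day 14 against mESC (-0.091 with quantile normalization, -0.17 with median scaling), and at day 14 against day 9 Foxa3 (0.075), Sox7 (0.093) and Hnf4a (0.26) with normexp and Hnf4a (0.086) without day 9 replicate 2, where leaving out another array gave values down to -0.20. Causes were not tested. Over all genes 8565, 9783 and 2880 were called in the 3 comparisons, against 4750, 5836 and 1226 with normexp and 5483, 6430 and 1305 with the filter on all arrays. Median scaling moved the median of all genes by -0.13, -0.32 and -0.19, and normexp by 0.01, 0.29 and 0.25. The share of calls that were higher was 36.3% with median scaling, against 48.6%, at day 14 against mESC, and 58.9% against 73.8% between the days.

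The replicate numbers are not stated to pair the samples. Same-numbered arrays correlated between -0.0749 and 0.184 in their deviations from the group means. Differently numbered arrays were not compared, so these values do not settle whether samples were paired. With the replicate number as a block the calls among the 9 genes were 6 higher at day 9, 6 higher and 1 lower at day 14 and 3 lower between the days, and over all genes 8564, 9783 and 2876.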

Other observations

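Trophoblast genes of the list diverged between the days. Tpbpa, a marker of spongiotrophoblast, was at least 67.2-fold higher at day 14 than in mESC and 4.80 ± 0.43 (SE) higher on the log2 scale at day 14 than at day 9 (adjusted p = 2.52e-06, limma). The keratin gene Krt7 rose by 2.67 ± 0.14 at day 14 against day 9, while Hand1, a factor of trophoblast giant cells and heart, fell by 2.81 ± 0.19. Of the 10 tested genes, 5 were higher and 5 lower at day 14 than in mESC, and 3 were higher and 2 lower than at day 9. Over all genes 22.8% were higher and 24.1% lower at day 14 than in mESC, and 10.2% and 3.61% than at day 9.

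Gut genes also parted at day 14. Fabp1 and Lgals4 rose by 5.98 ± 0.10 and 2.67 ± 0.06 at day 14 against day 9, while the brush border gene Vil1 and the tight junction gene Cldn6 each fell by 1.57, with standard errors of 0.15 and 0.18. Of the 17 genes, 2 were higher and 5 lower at day 14 than at day 9, where 10.2% of all genes were higher and 3.61% lower.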
